A study of Mus musculus with 16 samples.

Results

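The 4 RNA libraries among the 16 libraries of the series were compared, to describe how the messenger RNA of progenitors of the mouse organ of Corti differed between embryonic days E12.0 and E13.5. The 2 libraries of E12.0 came from Sox2-GFP+ cells and the 2 of E13.5 from p27-GFP+ cells, both sorted by fluorescence from the cochlea, and each library was made with a TruSeq kit after poly(A) enrichment. The protocols write the ages as E12 and E13, and the age fields as E12.0 and E13.5. The labels do not give the strains or the reporter alleles, and age and reporter changed together, so the part of each in any difference below cannot be told apart. Whether the replicates are separate litters or pools is not in the labels, and p-values measure only the spread between these libraries. In bulk RNA, fewer cells of a type and less RNA per cell cannot be told apart. The genes were the 21187 protein-coding genes among 48709 gene identifiers, of which 12672 had enough counts for a test, 5139 had no count in any library and the rest fell below the filter. A gene is said to rise, fall or be called where edgeR's quasi-likelihood test gave an adjusted p under 0.05. The genes were sorted by symbol into 52 classes within 8 broad groups, which are transcription factors, secreted proteins, membrane proteins, enzymes and signalling proteins, cytoskeleton, cell division, gene expression machinery, and folding and traffic. The 5266 tested genes in no class were kept in every total.

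The organ of Corti, the hearing organ of the cochlea, forms from a strip of prosensory progenitors on the floor of the cochlear duct. These cells divide until they leave the cell cycle in a wave that starts at the apex of the duct, and only later become hair cells and supporting cells. Sox2 encodes a transcription factor needed to form this strip, and p27, the product of Cdkn1b, is an inhibitor of cyclin-dependent kinases that marks and helps to enforce the exit from the cycle. Mitotic proteins and replication-dependent histones are made chiefly in dividing cells, and the tectorial membrane that later overlies the hair cells is built from proteins that the cochlear epithelium secretes.

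Sox2 and Cdkn1b are the genes whose reporters were used for sorting. Sox2 stood at 36.9 and 39.4 CPM at E12.0, then 152 and 169 at E13.5 (CPM, counts per 1000000 after scaling by the trimmed mean of M values, TMM), and Cdkn1b, on chr6:134920401-134925525 of GRCm38, at 7.70 and 8.59 CPM at E12.0, then 229 and 182 at E13.5. Both E13.5 libraries were above both E12.0 libraries for either gene, with log2 fold changes of 2.07 ± 0.25 and 4.65 ± 0.30 (SE), edgeR adjusted p = 0.000132 and 6.09e-06. Each stage was sorted on 1 of these genes, so neither difference is separate from the sort. Of 15 markers of prosensory cells, all 15 were measured and 8 rose, Sox2 and Cdkn1b among them, and 2 fell, against 22.9% higher and 21.3% lower over all protein-coding genes. Their summed level was 2865 and 2857 CPM at E12.0, then 5595 and 5794 at E13.5. The 9 epithelial markers summed to 3355 and 3139.7 CPM at E12.0, then 1526 and 1889 at E13.5, with 1 of them higher and 4 lower. Hair cell markers summed to 26.1 and 38.7 CPM at E12.0, then 68.2 and 58.6 at E13.5. Most of this sum came from Myo6, which was not called. Markers of the nonsensory cochlear duct summed to 695 and 771 CPM at E12.0, then 663 and 1039 at E13.5. The 8 markers of endothelium, 8 of erythroid cells and 9 of immune cells each summed to at most 12.2 CPM in any library. Mesenchyme markers summed to 1434 and 1271 CPM at E12.0, then 489.7 and 601 at E13.5, most of it from the matrix gene Lum. Lum and Postn (26.5 and 37.8 CPM at E12.0) were called lower. Dcn, at 154 and 123 CPM at E12.0, then 116 and 133 at E13.5, was not called, while the collagen genes Col1a1 and Col1a2 reached at most 4.83 CPM. Glial and neural crest markers summed to 1801 and 2109.6 CPM at E12.0, then 647 and 682 at E13.5, most of it from Erbb3. Of the 6 tested, Erbb3 and Ngfr fell while Sox10 and Cdh19 rose. Sox10 stood at 49.5 and 51.8 CPM at E12.0, then 181 and 202 at E13.5. Neuronal markers summed to 412 and 339 CPM at E12.0, then 873 and 833 at E13.5, most of it from Isl1, which prosensory cells also express. Without Isl1 the neuronal sum was 48.1 and 58.7 CPM at E12.0, then 29.1 and 25.3 at E13.5, so it was lower in both E13.5 libraries, Dcx and Neurod1 were called lower, and Neurod4 and Prph had no count. Neurod1, a factor of neuronal precursors, was present at 7.84 and 13.7 CPM at E12.0, then 0 and 0.0424 at E13.5. Melanocyte markers reached 27.9 CPM in E13.5 replicate 2 against 4.72 in replicate 1 and 4.26 and 3.30 at E12.0, and Tyrp1, Tyr and Mlana were at 0 at E12.0. The part of these cells in the gene results was not tested.

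The libraries of the stages also differed as wholes. They held 9412326 and 9810603 expected counts at E12.0, then 17057751 and 19570946 at E13.5. Mitochondrial ribosomal RNA took 17.0% and 13.2% of them at E12.0 but 0.305% and 0.185% at E13.5, and protein-coding genes 78.3% and 82.7% against 92.7% and 94.5%. The median gap between a gene's length and its effective length, a measure of fragment length, came to 146 and 141 bases against 189 and 188. Log CPM correlated across genes at 0.945 and 0.946 within the stages and at 0.759 to 0.786 between them. These differences run with the stage and cannot be told apart from it. Genes whose reads can also fit near-identical copies, such as ribosomal protein genes, Gapdh, Ppia, Tubb5, Ybx1, H3f3a and other histones, are uncertain, since the handling of shared reads is not described in any label or header.

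Of the 12672 protein-coding genes tested, 5605 (44.2%) passed the test at E13.5 against E12.0, 2907 (22.9%) higher and 2698 (21.3%) lower. At least 4-fold differences were called for 1079 genes (8.51%) higher and 1019 (8.04%) lower, and for 74.8% of all tested genes both libraries of one stage lay above both of the other. Against that background, cell division genes fell together, with 199 of 345 lower and 32 higher. Gene expression machinery leaned lower (405 lower, 242 higher of 1331), with the lowest class medians in histones and cytosolic ribosomal proteins and the most lower calls in splicing and RNA-binding proteins (116). Secreted proteins (124 higher, 59 lower of 383), membrane proteins (261 higher, 143 lower of 1002) and transcription factors (221 higher, 158 lower of 839) leaned higher. Enzymes and signalling proteins (514 higher, 513 lower of 2325), the cytoskeleton (132 higher, 161 lower of 639) and folding and traffic (144 higher, 116 lower of 542) split about evenly. Without E12.0 replicate 1 the higher calls numbered 15 in cell division, 146 in transcription factors, 172 in membrane proteins, 156 in gene expression machinery and 95 in folding and traffic, each over 1.5 times fewer. Leaving out either E13.5 library left 21 cell division genes called higher.

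**Figure D1:**
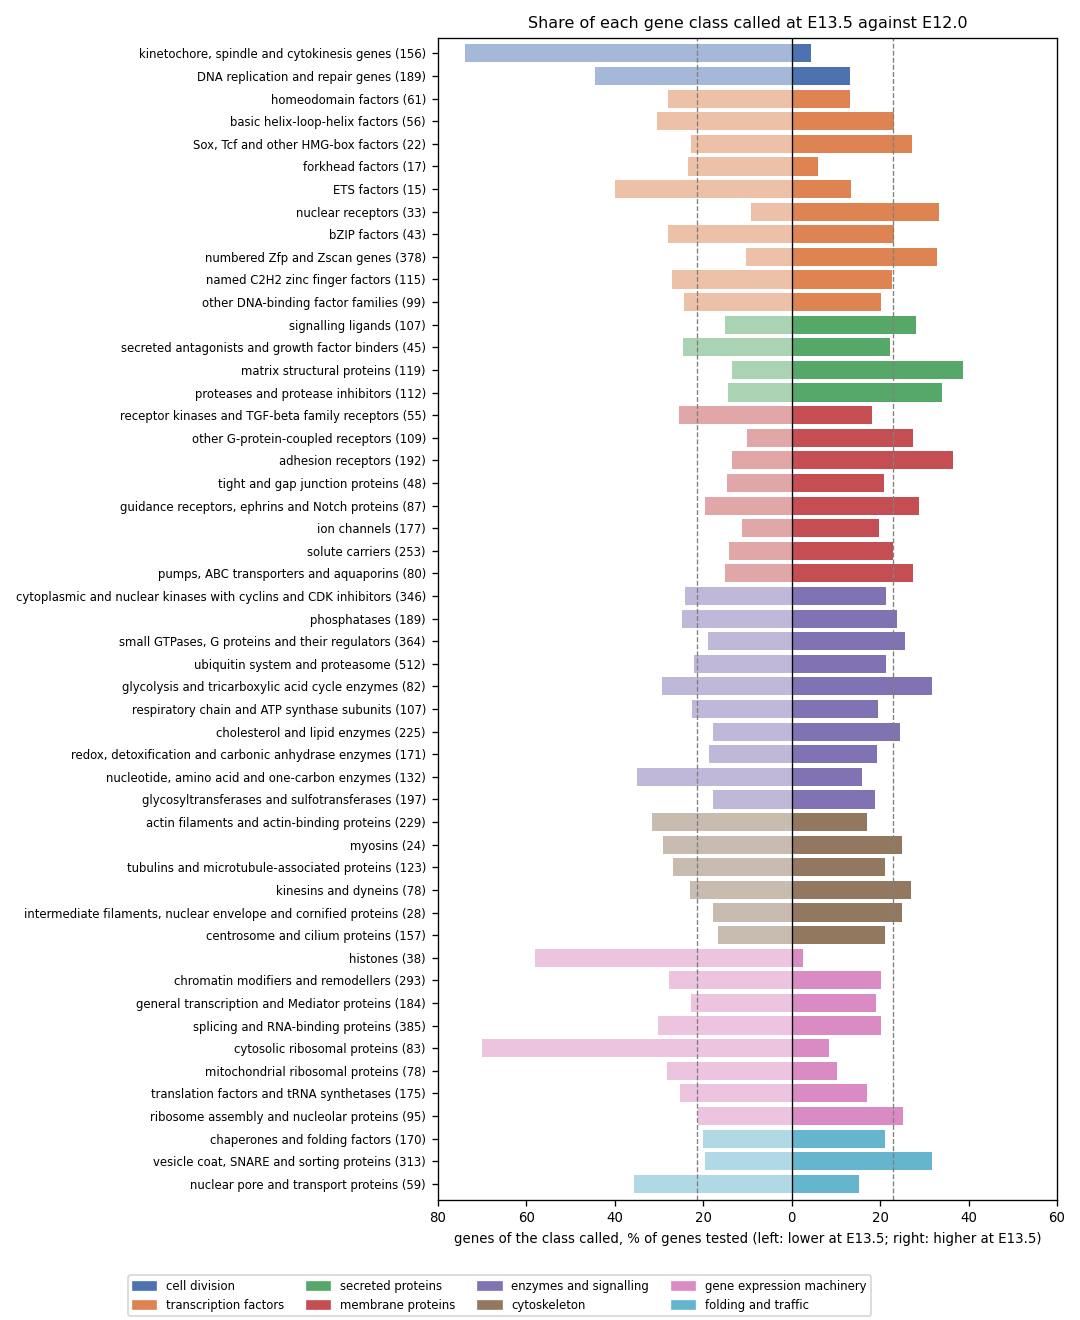
For each gene class (number tested in parentheses), bars to the right give the share of tested genes called higher at E13.5 and pale bars to the left the share called lower, in percent, by edgeR at an adjusted p under 0.05, coloured by broad group. Dashed lines mark the shares over all protein-coding genes, 22.9% higher and 21.3% lower, and the longest bars to the left belong to the kinetochore, ribosomal protein, histone and replication classes.

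The split over all protein-coding genes was close to even in the edgeR fits but not with limma on transcripts per 1000000 (TPM, counts corrected for gene length), which changes the test, the length correction, the scaling and the pseudocount together. With edgeR and TMM scaling the median log2 fold change over all protein-coding genes was 0.10, and with DESeq2's size factors in its place 2749 genes were called higher and 2816 lower. With limma on log2(TPM + 1) the median was 0.72 higher, and 5676 genes were called higher and 1153 lower. With TPM computed over protein-coding genes alone the shift was 0.53 and the split 4937 to 1511. In the first of these TPM fits the broad groups therefore read 77 higher and 129 lower for cell division, 404 higher and 57 lower for transcription factors, 182 higher and 33 lower for secreted proteins and 439 higher and 49 lower for membrane proteins. The same fit gave 1032 higher and 187 lower for enzymes and signalling proteins, 265 higher and 60 lower for the cytoskeleton, 539 higher and 192 lower for gene expression machinery and 279 higher and 43 lower for folding and traffic. Class medians are therefore given relative to the median of all protein-coding genes in the same fit, and a range over the fit and its 13 alternatives follows where it matters. Of the 5605 calls, 2404 (1411 higher, 993 lower) were made in the same direction under every one of the 13 alternatives, and the genes named below are among them unless said otherwise.

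Relative medians kept their sign in cell division (-1.40, range -1.51 to -1.26), gene expression machinery (-0.31, -0.38 to -0.21), secreted proteins (0.30, 0.08 to 0.37), transcription factors (0.19, 0.08 to 0.28) and membrane proteins (0.19, 0.04 to 0.26). Those of enzymes and signalling proteins (-0.03, -0.06 to -0.0004) and the cytoskeleton (-0.03, -0.11 to -0.01) stayed negative but small. Folding and traffic changed sign between alternatives, up to 0.11. The level of a gene went with its direction too. Median log2 fold changes over 5 equal groups of protein-coding genes, from the least to the most abundant, were 0.41, 0.38, 0.19, -0.01 and -0.39, so the most abundant genes leaned lower. Compared only with genes of the same abundance group, the medians were -1.50 for cell division, -0.20 for gene expression machinery, 0.25 for secreted proteins and 0.13 for both transcription factors and membrane proteins.

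**Figure D2:**
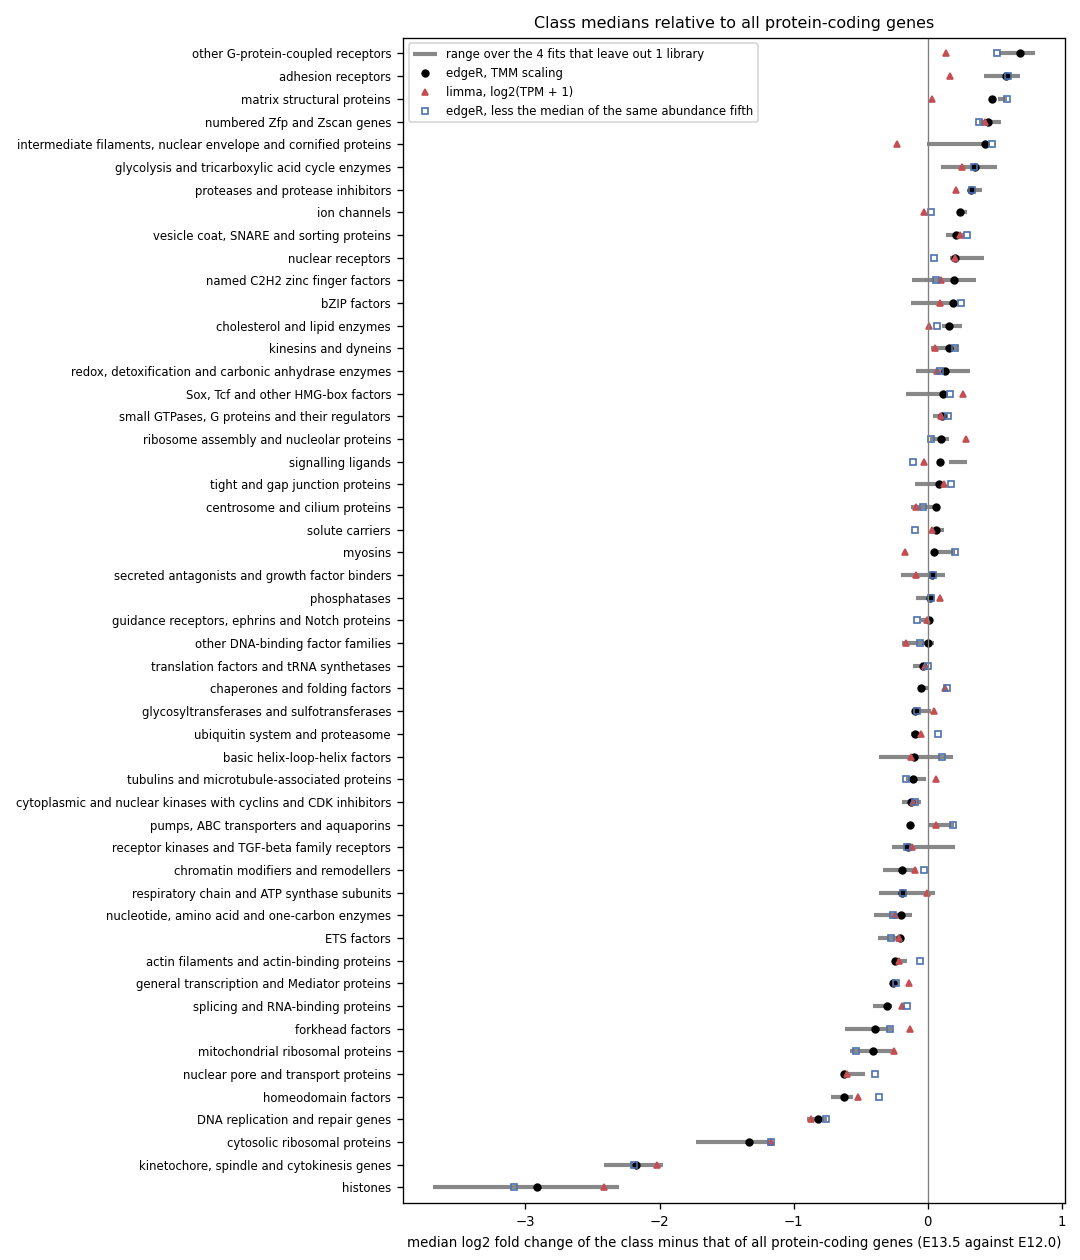
Median log2 fold change of each gene class minus that of all protein-coding genes (horizontal axis, E13.5 against E12.0), for edgeR with TMM scaling (black), limma on log2(TPM + 1) (red) and after subtracting the median of the same abundance group (open squares), with grey bars for the range over the 4 fits that each leave out 1 library. Histones (-2.92), kinetochore genes (-2.18) and cytosolic ribosomal proteins (-1.33) lie far to the left under every reading, while most other classes lie close to zero.

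The machinery of mitosis had the largest share of lower calls of any class. Of 156 kinetochore, spindle and cytokinesis genes tested, 7 rose and 115 fell, and their median log2 fold change was -2.08, against 0.10 over all protein-coding genes. Ube2c, which encodes the E2 enzyme of the anaphase-promoting complex, stood at 381 and 308 CPM at E12.0, then 5.72 and 12.97 at E13.5. Cdk1, the kinase that drives entry into mitosis, stood at 186 and 158 CPM at E12.0, then 5.76 and 10.8 at E13.5. Top2a, which untangles replicated DNA, stood at 423 and 499.6 CPM at E12.0, then 37.3 and 60.2 at E13.5. For each gene both E12.0 libraries were far above both E13.5 libraries, and the log2 fold changes were -5.199 ± 0.41, -4.37 ± 0.35 and -3.24 ± 0.30 (SE; edgeR adjusted p = 1.41e-05, 1.58e-05 and 3.18e-05). Cdc25b, the phosphatase that activates Cdk1, fell by 3.81 on the log2 scale, Espl1 (separase, which cuts cohesin at anaphase) by 4.32, Aurkb (a kinase of the chromosomal passenger complex) by 3.40 and the proliferation marker Mki67 by 2.82. Residual Cdk1 and Mki67 counts remained in both E13.5 libraries, at 5.76 and 10.8 CPM and at 25.4 and 42.98 CPM.

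The 7 genes of the mitotic class that rose included Fzr1 and Cenpb. Fzr1 encodes an adaptor of the anaphase-promoting complex that keeps the complex active after mitosis and through G1, and stood at 11.8 and 10.9 CPM at E12.0, then 93.7 and 120.2 at E13.5 (log2 fold change 3.23 ± 0.29). Cenpb, which binds centromeric repeats, rose from 10.2 and 15.7 to 62.1 and 75.7 CPM. Subunits of the anaphase-promoting complex itself went both ways: Anapc11 fell by 1.94 and Anapc4 by 0.92 on the log2 scale, while Anapc2 rose by 1.14 and Cdc27 by 0.79. Of these only Anapc11 was called under every alternative.

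Replication and repair fell less uniformly. Of 189 such genes, 25 rose and 84 fell, and the median log2 fold change was -0.72. Ccne1, the cyclin of the G1 to S transition, stood at 78.4 and 116 CPM at E12.0, then 9.34 and 9.75 at E13.5. Mcm7, a subunit of the replicative helicase, stood at 1168 and 695 CPM at E12.0, then 96.0 and 102 at E13.5. Pcna, the sliding clamp of DNA polymerases, stood at 279 and 207 CPM at E12.0, then 26.5 and 33.4 at E13.5. All 3 were lower in both E13.5 libraries, by 8.10 to 10.2-fold, and Chek2 and Cdk2 fell as well. Mcm2, of the same helicase as Mcm7, stood at 149.8 and 141 CPM at E12.0, then 101 and 124 at E13.5 and was not called (log2 fold change -0.37 ± 0.24, edgeR adjusted p = 0.234). The DNA ligases split, with Lig1, which joins Okazaki fragments, lower (log2 fold change -2.12) and Lig3, which acts in repair and in mitochondria, higher (0.90, not called under every alternative).

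Regulators of the cycle outside these classes also went in different directions. Besides Cdkn1b, the inhibitor Cdkn1c (p57) rose, from 94.6 and 98.8 to 141 and 175 CPM (log2 fold change 0.71 ± 0.24), while Cdkn1a (p21) fell, from 30.0 and 24.5 to 14.8 and 10.9 CPM (-1.08 ± 0.36). Neither was called under every alternative. Ccnd1, a D-type cyclin, fell from 1132 and 1137 to 351 and 349.7 CPM, and Cdk4, its kinase partner, changed by -0.68 (edgeR adjusted p = 0.0481), a call lost under some alternatives. Both E12.0 libraries were above both E13.5 libraries for Ccnd1 and Cdk4.

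The promoters of the fallen cell division genes were searched for short motifs known from cell cycle genes, and 6 promoters chosen because they hold them are shown. Most promoters of these classes lack TTTGAA and the E2F forms. TTTGAA is the core of the cell cycle genes homology region, CCAAT is the box bound by NF-Y, and TTTCCCGC, TTTGGCGC, TTTCGCGC and TTTGCCGC are forms of the E2F site. Each was searched on both strands of the 250 bases before the start in the RefSeq promoter table of GRCm38.p6, which held 10193 of the 12672 tested genes. Matches of different motifs were counted separately even where they could share bases. The 4 mitotic genes are those with the lowest fold changes that hold both TTTGAA and CCAAT within 160 bases of the start, and the 2 replication genes those with the lowest fold changes that hold an E2F form there. Genes on a single chromosome were left out of this choice. Each stretch ends at the base before the transcription start and reads 5′ to 3′ along the gene's strand. Capitals mark TTTGAA or CCAAT, on either strand, in the first 4 and the E2F forms in the last 2.
Ube2c, chr2:164769769-164769928, + strand: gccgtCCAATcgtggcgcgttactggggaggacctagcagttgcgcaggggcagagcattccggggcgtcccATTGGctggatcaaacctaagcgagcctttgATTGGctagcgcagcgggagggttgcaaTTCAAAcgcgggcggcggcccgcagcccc
Depdc1a, chr3:159495273-159495432, + strand: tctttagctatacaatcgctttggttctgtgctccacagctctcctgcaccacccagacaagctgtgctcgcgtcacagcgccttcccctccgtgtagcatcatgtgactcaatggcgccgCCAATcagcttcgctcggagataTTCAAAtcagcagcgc
Cdk1, chr10:69352913-69353072, - strand: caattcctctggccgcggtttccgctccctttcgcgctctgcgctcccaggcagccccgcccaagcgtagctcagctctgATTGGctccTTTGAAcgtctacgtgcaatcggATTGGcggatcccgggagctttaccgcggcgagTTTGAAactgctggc
Espl1, chr15:102296133-102296292, + strand: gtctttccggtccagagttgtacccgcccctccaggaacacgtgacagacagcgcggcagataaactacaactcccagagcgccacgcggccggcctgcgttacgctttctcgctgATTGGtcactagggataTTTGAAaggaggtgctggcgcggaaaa
Chek2, chr5:110839823-110839982, + strand: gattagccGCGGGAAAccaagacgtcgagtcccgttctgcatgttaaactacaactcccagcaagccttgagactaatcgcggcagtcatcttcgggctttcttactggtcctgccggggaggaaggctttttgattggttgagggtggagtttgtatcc
Cdk2, chr10:128705052-128705211, - strand: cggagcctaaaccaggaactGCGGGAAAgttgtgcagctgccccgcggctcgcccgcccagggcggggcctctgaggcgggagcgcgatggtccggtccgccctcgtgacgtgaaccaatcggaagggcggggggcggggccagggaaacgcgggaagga
TTTGAA occurred in 26.3% of 133 promoters of the kinetochore class, against 10.3% of all tested genes and 16.3% of all 27025 promoters in the table. CCAAT occurred in 54.9% against 36.9% of tested genes and 34.5% of all promoters, and both together in 19.5% against 4.23%. An E2F form occurred in 15.5% of 148 promoters of the replication class, against 3.49% of tested genes and 1.91% of all promoters. Within the replication class the share was 16.4% for genes that fell and 14.8% for the others, and within the kinetochore class TTTGAA was in 29.2% and 18.9%. Among the kinetochore genes that fell, 22 of the 28 promoters with TTTGAA held it within 100 bases of the start, against 29.7% of all tested promoters with it. A match is a description of these letters, not a bound site or a cause. Nfya, which encodes a subunit of NF-Y, itself fell from 47.6 and 56.0 to 1.43 and 2.54 CPM (log2 fold change -4.69 ± 0.42). Of the genes whose promoters are shown, Depdc1a, a mitotic gene, stood at 16.6 and 23.4 CPM at E12.0, then 1.33 and 0.170 at E13.5 and Espl1 at 87.6 and 105 CPM at E12.0, then 5.48 and 4.15 at E13.5. Chek2, a checkpoint kinase, stood at 65.1 and 50.4 CPM at E12.0, then 5.81 and 5.09 at E13.5 and Cdk2, the partner of cyclin E, at 218 and 142 CPM at E12.0, then 23.96 and 34.8 at E13.5. All 4 were lower in both E13.5 libraries.

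Among transcription factors the families moved differently. The numbered Zfp and Zscan genes, most of which encode DNA-binding proteins with C2H2 zinc fingers, carried most of the higher calls: of 378 tested, 124 rose and 39 fell, with a relative median of 0.45 (range 0.38 to 0.55). Homeodomain factors leaned the other way, 8 higher and 17 lower of 61 tested, with a relative median of -0.63 (range -0.72 to -0.52), and 80 of the 203 family members had no count in any library. Of 33 nuclear receptors 11 rose and 3 fell. Sox, Tcf and HMG-box factors (6 higher, 5 lower of 22), basic helix-loop-helix factors (13 higher, 17 lower of 56) and bZIP factors (10 higher, 12 lower of 43) had relative medians that changed sign between alternatives. The ETS (2 higher, 6 lower of 15) and forkhead (1 higher, 4 lower of 17) factors had few higher calls.

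Sox4, a SoxC factor of progenitors and differentiating cells, had the largest increase among the tested Sox genes. It stood at 15.5 and 19.2 CPM at E12.0, then 464 and 455 at E13.5, while its SoxC relatives Sox11, at 1588 and 1719 CPM at E12.0, then 385 and 609 at E13.5, and Sox12, at 344 and 222 CPM at E12.0, then 94.0 and 86.0 at E13.5, went the other way. The log2 fold changes were 4.72 ± 0.28, -1.73 ± 0.29 and -1.65 ± 0.28 (edgeR adjusted p = 4.54e-06, 0.00096 and 0.000928), and the libraries of the stages did not overlap for any of the 3. The SoxE factor Sox10 rose (1.92), and Sox9, also SoxE, overlapped between stages at 522 and 460.4 CPM at E12.0, then 474 and 457 at E13.5. Tox2, an HMG-box factor, rose from 1.79 and 1.65 to 65.1 and 75.3 CPM, while its relative Tox fell from 683 and 523 to 121 and 129 CPM. Sox5 fell with TMM scaling (-1.06) and rose on TPM (1.04 over all genes and 0.80 over protein-coding genes), while in edgeR with effective gene lengths as an offset it was 0.20 and not called, so its direction was not stable.

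Basic helix-loop-helix factors of the Hes family moved apart. Hes6, which opposes Hes1 in other tissues, stood at 10.3 and 14.6 CPM at E12.0, then 77.3 and 88.3 at E13.5, whereas Hes1, a repressor induced by Notch, stood at 60.7 and 95.8 CPM at E12.0, then 15.5 and 13.99 at E13.5. Both E13.5 libraries were above both E12.0 libraries for Hes6 and below them for Hes1, with log2 fold changes of 2.73 ± 0.31 and -2.41 ± 0.32. Id1, an inhibitor of basic helix-loop-helix factors, fell by 2.16. Hey1 and Hey2, related repressors, were not called (-0.75 and -0.17, edgeR adjusted p = 0.0568 and 0.6). Max, the partner of Myc proteins, fell from 46.4 and 60.97 to 7.29 and 3.90 CPM.

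Factors with known roles in the ear changed in both directions. Gata3, required for cochlear development, stood at 579 and 534 CPM at E12.0, then 1545 and 1673 at E13.5. Isl1, a LIM homeodomain factor of the prosensory domain, stood at 364 and 280.3 CPM at E12.0, then 844 and 808 at E13.5 and Six2, a related homeodomain factor, at 66.6 and 56.5 CPM at E12.0, then 276 and 391 at E13.5. All 3 were higher in both E13.5 libraries (log2 fold changes 1.53 ± 0.25, 1.36 ± 0.25 and 2.44 ± 0.28). Six4, of the same family as Six2, fell (-0.87, not called under every alternative). Otx2, a homeodomain gene of nonsensory parts of the ear, fell from 20.4 and 51.8 to 5.95 and 4.41 CPM and Dlx3 fell from 10.2 and 18.2 to 0.810 and 2.33 CPM. Atoh1, the factor that specifies hair cells, was low at both stages (0.275 and 0.942 CPM at E12.0, then 2.38 and 5.04 at E13.5) and its call (edgeR adjusted p = 0.0387) was lost under some alternatives.

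Nuclear receptors that rose included Nr1h2, an oxysterol receptor, at 14.9 and 16.5 CPM at E12.0, then 154 and 144 at E13.5, Rorb at 158 and 146 CPM at E12.0, then 691 and 431 at E13.5, and the retinoid partner Rxrb (log2 fold change 2.06). Thrb, the thyroid hormone receptor beta, fell from 1431 and 804 to 238 and 206 CPM. The libraries of the stages did not overlap for these genes. Among the zinc finger genes Zfp445, which protects imprinted methylation, stood at 2.06 and 5.18 CPM at E12.0, then 139.5 and 129 at E13.5 and Zfp664 at 1252 and 1185 CPM at E12.0, then 222 and 201 at E13.5, with log2 fold changes of 5.19 ± 0.41 and -2.53 ± 0.25. Of the remaining families, Jun, a component of AP-1, rose from 121 and 125 to 545 and 576 CPM, Hsf1, the regulator of the heat shock response, rose from 5.50 and 5.30 to 69.1 and 53.4 CPM, Foxo4 fell from 27.6 and 42.5 to 1.33 and 0.805 CPM and Bach2 fell from 119.8 and 129.7 to 16.2 and 10.6 CPM, the last not called on TPM.

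Among secreted proteins most of the higher calls were matrix proteins and proteases. Of 119 matrix structural proteins 46 rose and 16 fell (relative median 0.48, but 0.03 on TPM), and of 112 proteases and protease inhibitors 38 rose and 16 fell (0.32, range 0.21 to 0.41). Signalling ligands (30 higher, 16 lower of 107) and secreted antagonists and binders (10 higher, 11 lower of 45) had relative medians that changed sign between alternatives. Tecta, which encodes alpha-tectorin of the tectorial membrane, stood at 90.5 and 99.2 CPM at E12.0, then 908 and 1141 at E13.5. The tectorial membrane genes Tectb and Otogl also rose (log2 fold changes 2.93 and 3.10), while Otog, of the same matrix, was not called (-0.28, edgeR adjusted p = 0.369). The log2 fold change of Tecta was 3.43 ± 0.27 (edgeR adjusted p = 1.47e-05).

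Cartilage-type collagens rose together. Col2a1 stood at 1193 and 1022 CPM at E12.0, then 2942 and 2796 at E13.5. Col9a3 stood at 28.7 and 29.1 CPM at E12.0, then 274 and 241 at E13.5 and Col11a1 at 45.5 and 64.6 CPM at E12.0, then 195 and 234 at E13.5. Both E13.5 libraries were above both E12.0 libraries for each of them, and Col9a1, Col9a2 and Col11a2 rose too, so that these 6 chains of collagens II, IX and XI passed the test with log2 fold changes of 1.14 to 3.15. Laminin chains, which build basement membranes, did not move as one. Lamb1 rose from 49.1 and 46.4 to 227 and 247 CPM. Lamc3 rose from 0.550 and 1.41 to 37.5 and 36.4 CPM, whereas Lamc1 fell from 299 and 394 to 125 and 129 CPM. Hspg2, the basement membrane proteoglycan perlecan, fell from 25.997 and 35.1 to 2.33 and 2.03 CPM, and Sdc1, the cell surface proteoglycan syndecan-1, fell from 1112 and 774 to 24.7 and 26.2 CPM (log2 fold change -5.21 ± 0.31), while Sdc3 rose by 0.99, not called under every alternative.

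Ligands changed in both directions. Mdk, the heparin-binding growth factor midkine, stood at 3485 and 2032 CPM at E12.0, then 247 and 316 at E13.5. Igf2, an insulin-like growth factor, stood at 399 and 343 CPM at E12.0, then 40.6 and 56.1 at E13.5. Manf, a secreted factor of the endoplasmic reticulum, stood at 1558 and 1021 CPM at E12.0, then 116 and 120.2 at E13.5 and Tgfb2 at 2402 and 1138 CPM at E12.0, then 476 and 478 at E13.5. In all 4 both E12.0 libraries were above both E13.5 libraries, with log2 fold changes of -3.29, -2.94, -3.45 and -1.89. Angpt1, a ligand of the Tie2 receptor, rose from 33.0 and 40.6 to 342 and 305 CPM and Hgf, the ligand of Met, rose from 3.58 and 4.94 to 31.4 and 21.02 CPM. The fibroblast growth factors Fgf20, a prosensory ligand, and Fgf9, its close relative in the same subfamily, moved in opposite directions, with Fgf20 at 18.6 and 8.59 CPM at E12.0, then 83.0 and 97.0 at E13.5 and Fgf9 at 171 and 98.2 CPM at E12.0, then 38.8 and 47.8 at E13.5 (log2 fold changes 2.73 ± 0.38 and -1.64 ± 0.31). Fgf10 overlapped between stages (165 and 159 CPM at E12.0, then 181 and 159 at E13.5). Rspo2, which amplifies Wnt signals, fell from 128 and 151 to 15.9 and 12.1 CPM, and the BMP antagonists Chrd and Chrdl1 rose (2.68 and 2.505). Cpxm2, a secreted carboxypeptidase-like protein, rose from 2.34 and 1.88 to 144 and 213 CPM and the protease inhibitor gene Wfdc2 fell from 219.9 and 152 to 12.1 and 15.9 CPM.

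Among membrane proteins the adhesion receptors and G-protein-coupled receptors leaned higher the most. Of 192 adhesion receptors 70 rose and 26 fell (relative median 0.59, range 0.17 to 0.69), and of 109 G-protein-coupled receptors other than chemosensory ones 30 rose and 11 fell (0.69, 0.14 to 0.80). Receptor kinases and TGF-beta receptors (10 higher, 14 lower of 55), ion channels (35 higher, 20 lower of 177) and guidance receptors (25 higher, 17 lower of 87) had relative medians that changed sign between alternatives. Solute carriers, with 58 higher and 36 lower of 253, lay close to all genes (0.06). Of 1424 olfactory, vomeronasal and taste receptor genes 1322 had no count in any library and 1, Tas1r1, was tested.

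Related adhesion genes changed in opposite directions. Nectin2 stood at 34.3 and 29.7 CPM at E12.0, then 272 and 309 at E13.5 and Nectin3 at 187 and 185 CPM at E12.0, then 409 and 354 at E13.5. Nectin1, of the same family of junctional adhesion proteins, stood at 123 and 99.7 CPM at E12.0, then 5.62 and 4.28 at E13.5. The first 2 were higher and the last lower in both E13.5 libraries, with log2 fold changes of 3.19 ± 0.26, 1.04 ± 0.24 and -4.49 ± 0.32. Ctnnb1, which encodes beta-catenin of adherens junctions and Wnt signalling, fell from 1332 and 1447 to 239 and 294 CPM, and the epithelial adhesion gene Epcam fell from 950.2 and 895 to 271 and 429.8 CPM, the latter not called on TPM over all genes. Cdh1 (E-cadherin) was not called, with 121 and 132 CPM at E12.0, then 142 and 154 at E13.5. Cdh2 (N-cadherin) rose by 1.14, not called under every alternative. Among claudins, which seal tight junctions, Cldn3 stood at 3.03 and 3.41 CPM at E12.0, then 50.2 and 64.1 at E13.5 and Cldn9 at 91.5 and 66.6 CPM at E12.0, then 348 and 457 at E13.5. Cldn7 stood at 362 and 285 CPM at E12.0, then 70.6 and 108 at E13.5, so that 2 of the 3 rose and 1 fell. The gap junction gene Gja1 fell from 193 and 171 to 38.2 and 57.3 CPM.

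Receptors of signalling pathways were likewise split. Lgr5, an R-spondin receptor and a prosensory marker, stood at 184 and 132 CPM at E12.0, then 454 and 439 at E13.5 and Fzd9, a Wnt receptor, at 3.85 and 4.12 CPM at E12.0, then 41.6 and 54.7 at E13.5. Erbb3, a neuregulin receptor, stood at 1708 and 2004 CPM at E12.0, then 435 and 457 at E13.5. The first 2 were higher in both E13.5 libraries (log2 fold changes 1.501 ± 0.26 and 3.59 ± 0.37) and Erbb3 lower (-2.06 ± 0.26). Ephb6 rose from 14.3 and 10.2 to 60.5 and 65.1 CPM, while Ephb1 fell from 548 and 555 to 61.3 and 78.7 CPM, and the Ret co-receptor Gfra1 and the Wnt5a receptor Ror2 fell (-3.23 and -2.30). The Notch ligand Jag1, a marker of the prosensory strip, rose from 229 and 169 to 867 and 971 CPM, whereas Notch1 fell by 1.18, a call lost on TPM. Gas1, a co-receptor of Hedgehog signalling, fell from 522 and 583 to 50.3 and 58.5 CPM, and Ackr3, an atypical chemokine receptor, fell from 19.4 and 17.7 to 0.143 and 0.593 CPM. The potassium channel gene Kcnk1 rose from 35.1 and 36.5 to 72.6 and 112 CPM.

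Enzymes and signalling proteins, the largest broad group, were close to the background in both directions, and the calls came from many classes. Nucleotide, amino acid and one-carbon enzymes had the lowest relative median among these classes (21 higher and 46 lower of 132, relative median -0.20, range -0.40 to -0.12). Kinases with cyclins and their inhibitors (74 higher and 83 lower of 346), phosphatases (45 higher and 47 lower of 189), the ubiquitin system (109 higher and 113 lower of 512), glycosyltransferases (37 higher and 35 lower of 197) and redox enzymes (33 higher and 32 lower of 171) had nearly equal numbers. The relative medians of the kinases (-0.12, range -0.19 to -0.05) and the ubiquitin system (-0.10, range -0.13 to -0.05) were nevertheless below all genes in the fit and its 13 alternatives. Beside genes of like abundance the median was -0.10 for the kinases but 0.08 for the ubiquitin system, so the latter changed sign. Small GTPases, G proteins and their regulators (93 higher and 69 lower of 364) and lipid enzymes (55 higher and 40 lower of 225) leaned slightly higher. Of 82 enzymes of glycolysis and the tricarboxylic acid cycle 26 rose and 24 fell. Their relative median was nevertheless the highest among these classes (0.35, range 0.10 to 0.52), and 0.34 beside genes of like abundance. Of 107 respiratory chain and ATP synthase subunits 21 rose and 24 fell.

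Neighbouring steps of carbohydrate metabolism were called in opposite directions. Pkm, pyruvate kinase, stood at 283 and 265 CPM at E12.0, then 778 and 1169.8 at E13.5 and Aldoa, aldolase A, at 76.6 and 73.1 CPM at E12.0, then 161 and 223 at E13.5, both higher in both E13.5 libraries. Gapdh stood at 955 and 645 CPM at E12.0, then 120.2 and 137 at E13.5, lower at E13.5 (log2 fold change -2.63 ± 0.28), with the uncertainty from its many pseudogene copies. Ldha, lactate dehydrogenase A, overlapped between stages (198 and 232 CPM at E12.0, then 151 and 202 at E13.5). Aldoc and Pgls rose (3.38 and 3.44), and Sdhc, of the tricarboxylic acid cycle and the respiratory chain, fell by 2.90. In the respiratory class Uqcrh, of complex III, fell from 691 and 434 to 30.4 and 36.5 CPM, while Atp5d, a subunit of ATP synthase, rose from 9.22 and 7.89 to 63.0 and 100.1 CPM and Atp5g3, of the same synthase, fell from 238 and 183 to 44.5 and 40.2 CPM.

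Other enzymes had some of the largest changes of their classes. The antioxidant enzyme Sod1 stood at 240.2 and 159 CPM at E12.0, then 6.81 and 8.65 at E13.5 and Selenot, a thioredoxin-like protein of the endoplasmic reticulum, at 284 and 305 CPM at E12.0, then 13.8 and 11.1 at E13.5. Both were lower in both E13.5 libraries, with log2 fold changes of -4.69 ± 0.33 and -4.56 ± 0.28. Nme3, a nucleoside diphosphate kinase, fell from 930.0 and 529 to 11.4 and 12.4 CPM and its relative Nme4 rose from 3.71 and 2.59 to 23.2 and 22.6 CPM. Fabp5, a fatty acid carrier, fell from 436 and 258 to 13.6 and 18.6 CPM and Scd2, a fatty acid desaturase, fell from 3165 and 3052 to 604 and 759.6 CPM, whereas Acss3, a mitochondrial acyl-CoA synthetase, rose from 0.138 and 1.06 to 28.8 and 27.6 CPM. Among enzymes that add sugars to Notch, Rfng rose from 2.06 and 4.002 to 96.3 and 59.3 CPM and Lfng fell from 32.9 and 36.02 to 8.002 and 6.10 CPM. Fbxo2, a ubiquitin ligase adaptor abundant in the cochlea, rose from 73.0 and 42.0 to 279 and 399.9 CPM, and Ubqln2 fell from 152 and 132 to 7.24 and 14.8 CPM. The GTPase Rab35 fell from 80.9 and 81.8 to 6.10 and 3.31 CPM, and Plppr3 and the phosphatase gene Pgp rose (3.49 and 4.76).

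Within the cytoskeleton, actin-binding proteins had more lower than higher calls, a difference that was small beside genes of like abundance. Of 229 actin genes and actin-binding proteins 39 rose and 72 fell (relative median -0.24, range -0.25 to -0.15, and -0.06 within abundance groups). Tubulins and microtubule-associated proteins (26 higher and 33 lower of 123), kinesins and dyneins outside mitosis (21 higher and 18 lower of 78), intermediate filaments and nuclear envelope proteins (7 higher and 5 lower of 28) and centrosome and cilium proteins (33 higher and 26 lower of 157) had relative medians that changed sign between alternatives. The cytoplasmic actins Actb, at 1386 and 1231 CPM at E12.0, then 236 and 312 at E13.5, and Actg1, at 4725 and 4844 CPM at E12.0, then 1578 and 1929 at E13.5, both fell, Actg1 not on TPM over all genes. Pfn1, profilin 1, which feeds actin monomers to filaments, stood at 23.4 and 24.5 CPM at E12.0, then 179.8 and 219.8 at E13.5 and Cfl1, cofilin, which severs filaments, at 141 and 127 CPM at E12.0, then 286 and 374 at E13.5. Both were higher in both E13.5 libraries, with log2 fold changes of 3.06 ± 0.26 and 1.30 ± 0.25. Pfn2, a further profilin, fell from 222 and 249.8 to 100.4 and 92.8 CPM, not called on TPM. Actn4 rose from 135 and 168 to 582 and 689 CPM and Actn1, also an alpha-actinin, fell from 91.2 and 79.1 to 27.4 and 29.1 CPM, the latter not called on TPM over all genes.

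Sntb1, a syntrophin of the dystrophin complex, rose from 1.10 and 0.706 to 64.7 and 87.8 CPM (log2 fold change 6.40 ± 0.43, edgeR adjusted p = 8.14e-06). Arpc3, of the complex that nucleates branched actin, fell from 113 and 81.8 to 7.62 and 8.26 CPM and Fhl1, a LIM protein, fell from 669.9 and 495 to 26.6 and 17.5 CPM. Tubb5 and Tubb4b, beta-tubulins, fell from 2211 and 1906 to 113 and 179.9 CPM and from 568 and 558 to 29.9 and 36.9 CPM. Vim, the intermediate filament protein vimentin, fell from 1689 and 1165 to 354 and 436 CPM, whereas Krt18, an epithelial keratin, rose from 169 and 177 to 361 and 442 CPM and its partner Krt8 was not called (0.51, edgeR adjusted p = 0.141). At the nuclear envelope Emd (emerin) fell from 165 and 169 to 5.86 and 2.75 CPM, Tmpo fell from 1522 and 2359 to 255 and 276 CPM and Lmna, the A-type lamin, rose from 2.34 and 3.18 to 21.004 and 25.7 CPM. Syne4, a nesprin that links the nucleus of hair cells to the cytoskeleton, rose from 7.29 and 8.71 to 196 and 119 CPM, while the ciliary genes Tulp3 and Rpgrip1 fell (-4.65 and -4.66). Myo7a, a myosin known from hair cells, stood at 7.29 and 4.12 CPM at E12.0, then 19.1 and 15.6 at E13.5, a call lost under some alternatives.

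In the gene expression machinery the ribosome and the histones fell most. Of 83 cytosolic ribosomal proteins 7 rose and 58 fell (relative median -1.33, range -1.73 to -1.17), and 86.7% of the class lay in the most abundant of the 5 groups of genes, which itself leaned lower. Relative to genes of the same abundance group its median was -1.17. Of 38 histone genes 1 rose and 22 fell (-2.92, -3.69 to -2.30), though most histone messages carry no poly(A) tail and poly(A) selection counts them incompletely. Mitochondrial ribosomal proteins (8 higher and 22 lower of 78), splicing and RNA-binding proteins (78 higher and 116 lower of 385), chromatin modifiers (59 higher and 81 lower of 293) and general transcription proteins (35 higher and 42 lower of 184) leaned lower, translation factors (30 higher and 44 lower of 175) stood near all genes, and ribosome assembly proteins (24 higher and 20 lower of 95) leaned slightly higher. Beside genes of like abundance the medians of mitochondrial ribosomal, splicing and general transcription proteins were -0.54, -0.16 and -0.24. Those of chromatin modifiers and ribosome assembly proteins were then only -0.03 and 0.02.

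Ribosomal proteins did not fall in step. Rpl27 stood at 4474 and 2458 CPM at E12.0, then 88.5 and 107 at E13.5 and Rplp1 at 1313 and 664 CPM at E12.0, then 51.2 and 62.1 at E13.5. Rpl41 stood at 90.2 and 61.9 CPM at E12.0, then 213 and 241 at E13.5 and Rps2 at 206 and 157 CPM at E12.0, then 291 and 349 at E13.5. The first 2 fell and the last 2 rose, with log2 fold changes of -5.15 ± 0.38, -4.12 ± 0.37, 1.58 ± 0.27 and 0.82 ± 0.25, and the Rps2 call was lost under some alternatives. The relation of these unequal changes to reads shared with pseudogenes was not tested. Bud31, a splicing factor, fell from 1451 and 1104 to 28.1 and 28.8 CPM and Ybx1, an abundant RNA-binding protein, fell from 3456 and 2831 to 100.02 and 98.2 CPM, whereas its relative Ybx3 rose by 0.87, not called under every alternative. The epithelial splicing regulator Esrp1 fell from 1072 and 934 to 117 and 115 CPM. H3f3a, a replication-independent histone gene, fell from 4411 and 2967 to 290.0 and 327 CPM, and the linker histone gene Hist1h1c fell from 18.8 and 17.0 to 0.714 and 1.19 CPM.

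Chromatin proteins split between relatives. Hmga2, a chromatin architectural protein of embryonic cells, stood at 2146 and 1910.0 CPM at E12.0, then 504 and 540.2 at E13.5 and fell by 1.96 on the log2 scale. Npm3, a histone chaperone, fell from 81.4 and 50.03 to 1.29 and 0.339 CPM, while Npm1 rose from 321 and 290.2 to 440.4 and 518 CPM (log2 fold change 0.65 ± 0.24), a call lost under some alternatives. The RNA-binding protein Lin28b, a marker of embryonic progenitors, rose by 0.73, also not called under every alternative, and valyl-tRNA synthetase, Vars, rose from 23.7 and 27.5 to 157 and 117 CPM.

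Genes of the Y chromosome were among the largest increases of these classes. Ddx3y, an RNA helicase, stood at 0.825 and 12.5 CPM at E12.0, then 141 and 111 at E13.5 and Eif2s3y, a translation initiation factor, at 0.138 and 13.1 CPM at E12.0, then 98.2 and 95.4 at E13.5. Kdm5d, a histone demethylase, stood at 0.275 and 6.47 CPM at E12.0, then 41.1 and 35.9 at E13.5. The calls of Eif2s3y and Kdm5d were lost with DESeq2. The X-linked relatives Ddx3x and Eif2s3x fell (log2 fold changes -3.59 and -1.08, the latter not called on TPM). Xist, the RNA of the silenced X chromosome, stood at 677 and 506 CPM at E12.0, then 220.3 and 123 at E13.5. Y-linked levels were near 0 in E12.0 replicate 1, low in replicate 2 and high in both E13.5 libraries, and Xist moved the other way. The part of embryo sex in other results was not tested.

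In folding and traffic, vesicle proteins and nuclear pore proteins went in opposite directions. Of 313 vesicle coat, SNARE and sorting proteins 99 rose and 61 fell (relative median 0.21, range 0.14 to 0.27), while of 59 nuclear pore and transport proteins 9 rose and 21 fell (-0.62, -0.70 to -0.47). Chaperones and folding factors were even (36 higher and 34 lower of 170). Hspa5 (BiP), the main chaperone of the endoplasmic reticulum, stood at 583 and 662 CPM at E12.0, then 2462 and 2778 at E13.5. Pdia4, a disulfide isomerase, stood at 55.6 and 63.1 CPM at E12.0, then 481 and 642 at E13.5 and the related Pdia3 at 214 and 270.4 CPM at E12.0, then 841 and 1135 at E13.5. All 3 were higher in both E13.5 libraries, with log2 fold changes of 2.07 ± 0.26, 3.24 ± 0.28 and 2.03 ± 0.28, and Canx (calnexin) rose by 1.11. Other proteins of the same compartment did not follow: Calr and Hsp90b1 were not called (0.61 and 0.44, edgeR adjusted p = 0.0677 and 0.163), and Pdia5 fell from 168 and 152 to 17.3 and 15.6 CPM. In the cytosol Hsp90aa1 fell from 605 and 665 to 196 and 212 CPM, Hspa8 was not called (-0.15) and Ppia, with many pseudogene copies, fell from 3142 and 2454 to 318 and 439 CPM. Arrdc1, an arrestin-like sorting protein, rose from 5.50 and 8.12 to 143 and 109 CPM, and the importin gene Kpna2 and the pore gene Ndc1 fell (-3.05 and -3.20).

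Counted as shares of all protein-coding transcripts, on TPM, the broad groups took unequal parts of the cell's message pool. Gene expression machinery took 35.6% and 31.9% at E12.0, then 24.2% and 24.5% at E13.5, and cytosolic ribosomal proteins alone 17.4% and 12.9% at E12.0, then 7.34% and 8.19% at E13.5. Cell division genes took 2.41% and 2.71% at E12.0, then 1.37% and 1.36% at E13.5, and histones 2.26% and 1.88% at E12.0, then 0.784% and 1.05% at E13.5. These shares were lower in both E13.5 libraries. Transcription factors took 2.82% and 3.37% at E12.0, then 4.72% and 4.36% at E13.5, membrane proteins 3.14% and 3.599% at E12.0, then 4.67% and 4.52% at E13.5 and folding and traffic 5.46% and 5.87% at E12.0, then 6.71% and 7.10% at E13.5, all higher in both E13.5 libraries. Enzymes and signalling proteins took 16.5% and 16.8% at E12.0, then 18.1% and 18.5% at E13.5. Their gain was the largest among the named groups in percentage points (1.64). As a ratio of the mean shares it was only 1.10, against 1.47 for transcription factors, 1.36 for membrane proteins and 1.22 for folding and traffic. Shares add up to a fixed total, so a fall in one group raises the shares of the others. The cytoskeleton, which overlapped between stages, took 4.73% and 5.33% at E12.0, then 4.73% and 4.65% at E13.5. Secreted proteins took 3.41% and 3.02% at E12.0, then 2.79% and 2.91% at E13.5, a lower share although more of their genes rose than fell, and signalling ligands within them 1.74% and 1.29% at E12.0, then 0.637% and 0.624% at E13.5. By share of counts instead of TPM the secreted proteins rose by 0.724 percentage points, so the direction of that share depends on the correction for gene length. With 2 libraries a stage an exact permutation test cannot give a two-sided p below 0.3333, and none was run on the shares.

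**Figure D3:**
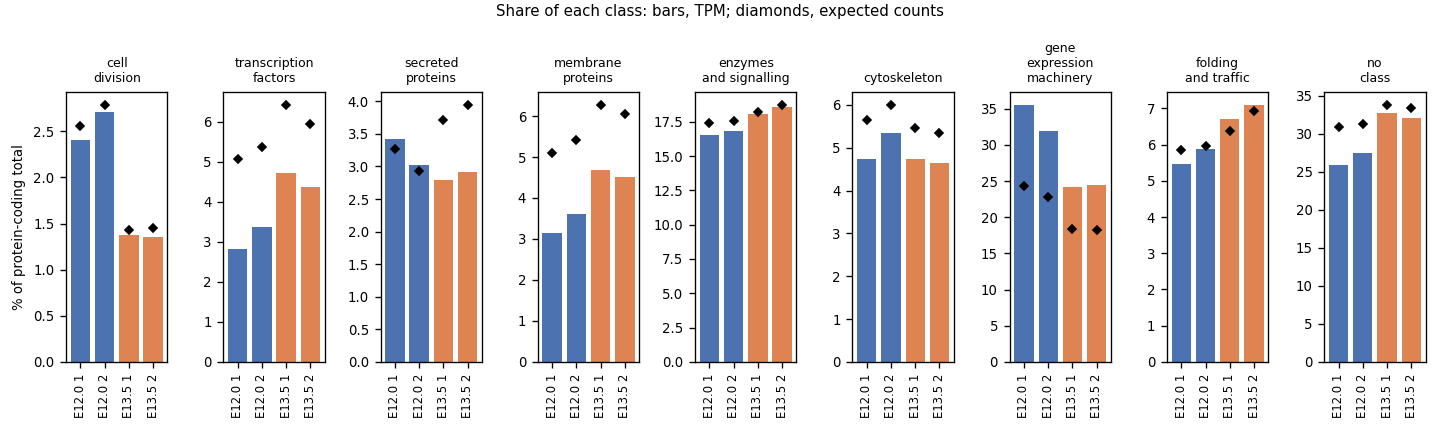
Share of each broad gene group among protein-coding transcripts, in percent of TPM (bars) and of expected counts (diamonds), for the 2 E12.0 libraries (blue) and the 2 E13.5 libraries (orange), each panel on its own axis from 0. Gene expression machinery drops from 35.6% and 31.9% to 24.2% and 24.5% of TPM, and in secreted proteins bars and diamonds move in opposite directions.

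Related genes called in opposite directions recurred across the broad groups, in the Sox, Tox, laminin gamma, nectin, claudin, Ephb, Cdkn1, profilin and Ybx families. In the Ephb family Ephb3 rose beside Ephb6, with 13.9 and 25.3 CPM at E12.0, then 47.2 and 45.1 at E13.5, a call lost under some alternatives. These families were picked because their members were called in opposite directions, and the pattern is a description of them only.

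**Figure D4:**
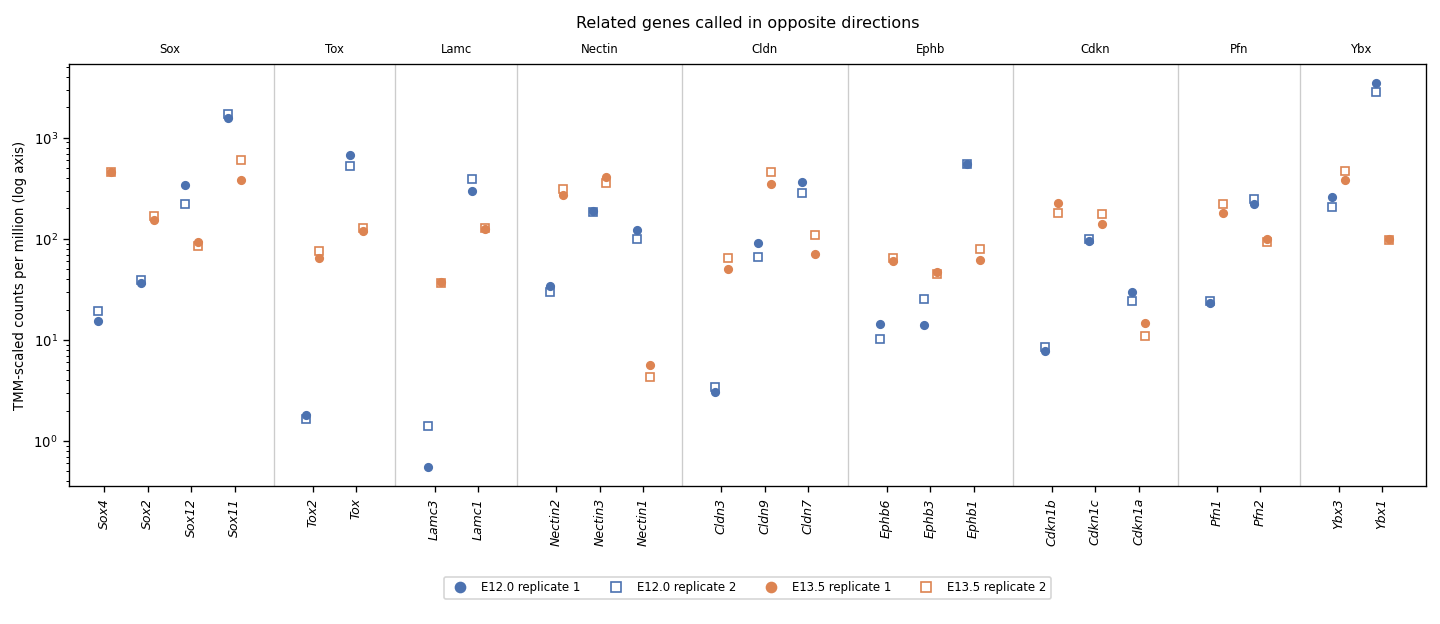
TMM-scaled CPM (log axis) of related genes called in opposite directions, by family, in the 2 E12.0 libraries (blue) and the 2 E13.5 libraries (orange), circles for replicate 1 and squares for replicate 2. Within each family the genes on the left rose and the gene or genes on the right fell, such as Nectin2 (34.3 and 29.7 to 272 and 309 CPM) and Nectin1 (123 and 99.7 to 5.62 and 4.28 CPM).

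Outside the classes the 5266 remaining genes split 1237 higher and 944 lower, with a relative median of 0.08. Apold1, an endothelial early response gene, stood at 0.138 and 0.589 CPM at E12.0, then 32.0 and 48.5 at E13.5 and Ccdc171 at 0.550 and 0.353 CPM at E12.0, then 26.01 and 23.01 at E13.5, both higher at E13.5. Bak1, a pore-forming protein of apoptosis, fell from 38.2 and 40.7 to 0.476 and 0.212 CPM. Of the tested protein-coding genes 55 had no count in either E12.0 library and 23 none in either E13.5 library, and all were called. Such genes passed the low-count filter only through the other stage, so their calls were close to fixed by the filter. With 3 counts summed over a stage as the floor (0.190 CPM at E12.0) Evi2 was at least 74.4-fold higher at E13.5, with 13.003 and 15.2 CPM there, and Ccdc85b at least 53.6-fold higher. Against 0.0673 CPM at E13.5 the predicted gene Gm20594, with 286 and 276 CPM at E12.0, was at least 4165-fold lower. These floors cover counting error only. The expected counts of Gm20594 at E12.0 were not whole numbers (2075.88 and 2341.71), and the part of shared reads in its fall was not tested. Dct, a melanocyte gene, also had no count at E12.0 and reached 2.05 and 16.5 CPM at E13.5, most of it in replicate 2.

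The regulators named in the study's title fell or were not called. Yap1, the coactivator of growth at the end of the Hippo pathway, stood at 253 and 269 CPM at E12.0, then 97.4 and 105 at E13.5 (log2 fold change -1.37 ± 0.24, edgeR adjusted p = 0.0011), and Wwtr1, which encodes the related Taz, at 269 and 179 CPM at E12.0, then 49.1 and 53.5 at E13.5 (-2.12 ± 0.28). Among their DNA-binding partners Tead1 and Tead2 fell (-1.68 and -0.80) and Tead3 and Tead4 were not called. Of these only Wwtr1 was called under every alternative, and Yap1, Tead1 and Tead2 lost their calls on TPM over all genes. The widely used targets of the pathway, Ccn1 (135 and 173 CPM at E12.0, then 178 and 237 at E13.5) and Ccn2 (34.5 and 52.7 CPM at E12.0, then 57.0 and 36.1 at E13.5), were not called (edgeR adjusted p = 0.198 and 0.841), and Amot, which binds Yap1, fell from 68.2 and 98.1 to 17.8 and 14.5 CPM.

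The CpG content of promoters varied between sets of genes. A CpG observed-to-expected ratio of at least 0.6 in the promoter table was found for 80.8% of the genes that fell, 71.3% of those that rose and 72.04% of those not called. Within the 5 abundance groups, from least to most abundant, this share was 55.5%, 70.8%, 78.02%, 85.8% and 87.01% for genes that fell. For genes not called it was 48.2%, 72.6%, 81.4%, 85.1% and 85.8%, so the excess among genes that fell changed sign between groups. Genes that rose had a smaller share than both in every group. Without regard to abundance, the share in the kinetochore class was 94.7%. In the numbered zinc finger genes, the family with the most higher calls among factors, it was 55.1%. In matrix structural proteins it was 38.6%.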

How the data were processed

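RNA was measured in 2 libraries of E12.0 Sox2-GFP+ and 2 of E13.5 p27-GFP+ cells. The deposited tables hold the authors' expected counts and TPM for each gene, with a gene length and an effective length, per the file headers. GRCm38 and mm10 are the builds, and MACS2, UMI-tools and STAR the tools, that the submitters' processing notes list for the whole series without roles. The program behind the gene tables was not given in the sources used here. Of 48709 gene identifiers 48349 carried a symbol from the reference tables, and protein-coding genes were those of that type in RefSeq (GRCm38.p6).

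Expected counts were rounded to whole numbers, filtered with filterByExpr and scaled by TMM. The quasi-likelihood test of edgeR 4.0.16 (in R 4.3.3) was used, and Benjamini-Hochberg adjustment ran over 15982 genes of every type at a threshold of 0.05. Log2 fold changes are E13.5 over E12.0 with standard errors. Each standard error was derived from the test, as the absolute log2 fold change divided by the square root of its F statistic. Alternatives used DESeq2 1.42.0, limma 3.58.1 on log2(TPM + 1) or log2(TPM + 0.1), other scalings, filters and offsets, a replicate block, and each library left out. Depth was 9412326 to 19570946 counts a library, and floors cover counting error only, while standard errors include the spread between libraries.

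Genes were put into 52 classes by patterns in their symbols, edited after the tables were seen, and 3 classes of folding and traffic were added later. A symbol pattern can misplace single genes. The comparison, its classes and its marker lists were chosen with earlier results of these data known. Genes were named by rule: per class up to 3 called genes with the largest and 3 with the smallest fold changes at a mean of 10 CPM or more in the higher stage, the member with the highest mean TPM, related genes called in opposite directions, cell type markers, the sorting reporter genes, and the 5 largest and 5 smallest outside the classes. A few genes that the rule names are not reported here. Chosen after their values were seen were Actb, Aldoa, Aurkb, Calr, Canx, Ccn1, Ccn2, Ccnd1, Cdk1, Cdk2, Cfl1, Depdc1a, Espl1, Hmga2, Hsp90aa1, Hsp90b1, Hspa8, Lamb1, Ldha, Mcm2, Mki67, Notch1, Otog, Otogl, Pcna, Pkm, Rorb, Sox9, Tectb and Top2a. Yap1, Wwtr1 and Tead1 to Tead4 were taken from the study's title.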

Additional observations from a re-analysis of the deposited data

How the results depend on the processing

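The fits with limma on TPM, which change the test, the length correction, the scaling and the pseudocount together, moved the counts most. With limma on log2(TPM + 1) over all genes 5676 protein-coding genes were called higher and 1153 lower, with TPM over protein-coding genes 4937 and 1511, and with a pseudocount of 0.1 4778 and 1467. In the same order the higher calls were 77, 68 and 68 in cell division, 404, 359 and 339 in transcription factors, 1032, 906 and 878 in enzymes and signalling, 265, 228 and 224 in the cytoskeleton, 539, 462 and 452 in gene expression machinery, 279, 242 and 238 in folding and traffic, and 439 in membrane proteins for the first fit. The lower calls were 57, 73 and 69 in transcription factors, 49, 67 and 64 in membrane proteins, 187, 265 and 250 in enzymes and signalling, 60, 83 and 82 in the cytoskeleton, 192, 252 and 249 in gene expression machinery, 43, 60 and 56 in folding and traffic, and 129 in cell division and 33 in secreted proteins for the first fit. Sox5 turned to 1.04 and 0.80 in the first 2 of these fits. By share of expected counts in place of TPM, the secreted proteins turned from a fall to a rise of 0.724 percentage points, and the changes were 0.971 for transcription factors, 0.910 for membrane proteins, 1.009 for enzymes and signalling, -5.25 for gene expression machinery and 0.751 for folding and traffic. The cause of these moves was not tested.

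Leaving out 1 library gave 1957 to 2328 higher and 2169 to 2374 lower calls over protein-coding genes. The higher calls then ranged from 15 to 25 in cell division, 146 to 192 in transcription factors, 172 to 208 in membrane proteins, 156 to 187 in gene expression machinery and 95 to 117 in folding and traffic. The lone library of a stage is then assumed to vary like the other stage. Libraries with the same replicate number did not deviate together (correlation of deviations 0.00794), and with the number as a replicate block 2846 genes were called higher and 2692 lower, with 486 named genes unchanged in call, 5 weaker and 3 stronger. DESeq2, its size factors in edgeR, no filter on low counts, the effective length offset and a fit of protein-coding genes alone left each broad count within 1.5 times its reported value. With 2 libraries a stage, differences small beside the spread between libraries could not be detected.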
